A study of Mus musculus with 10 samples.

Results

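Lymphoid homing chemokines and their receptors, the signals that gather B cells, T cells and dendritic cells into organised tissue, were examined in whole mouse lung. The set holds 8 genes, chosen by name: the ligand and receptor pairs Cxcl13 and Cxcr5, Ccl19 and Ccr7, Ccl20 and Ccr6, and Xcl1 and Xcr1. Of these 8 genes, 7 had a row in the count tables among 23930 amplicon targets, and Ccl19 was not analysed here. The mice were BALB/c females of 8 to 9 weeks, according to the methods, which do not state a genotype. PBS mice (n = 4) received PBS into the nose and HDM mice (n = 3) received extract of the house dust mite Dermatophagoides pteronyssinus, 2 times a week for 3 weeks. HDM+Nafamostat mice (n = 3) received the same extract and, 30 min before each instillation, 20 mg/kg of nafamostat, a broad inhibitor of serine proteases, into the peritoneum. Whether PBS and HDM mice were given the acetic acid vehicle is not in their labels, the amount of extract is not the same in the labels and in the methods, and elsewhere the study's text gives a longer exposure than the 3 weeks of both. Each library held lung RNA of 1 mouse, from the upper portion of the left lobe according to the transcriptome methods. The histology methods instead have the right lobes frozen for gene analysis and the left lobes fixed. Large airways, lymphatic tissue and alveoli were thus measured together, and the methods speak of separate experiments without naming the libraries of each.

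CXCL13 is made by stromal cells of B cell follicles and by some myeloid and T cells, and it draws cells that carry CXCR5, mainly B cells and follicular helper T cells. CCL19 leads CCR7-bearing naive T cells and mature dendritic cells into T cell zones. CCL20, which airway epithelium can release when it is inflamed, attracts CCR6-bearing T helper 17 cells, B cells and immature dendritic cells, and XCL1 from activated T cells and natural killer cells attracts XCR1-bearing conventional type 1 dendritic cells (cDC1).

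All values below are reads on 1 amplicon per gene, given as CPM (counts relative to the scaled library total), so that a gene can be compared between libraries but the levels of 2 genes cannot be set against each other. The libraries held 5901279 to 7353792 counts in PBS, 7105946 to 9354416 in HDM and 8053532 to 9666354 in HDM+Nafamostat. The lung markers were present in every library, with a summed level of 55200 to 70100 CPM in PBS, 43200 to 52300 CPM in HDM and 40400 to 54900 CPM in HDM+Nafamostat. Some libraries stood apart in other ways. HDM replicate 3 had a summed olfactory receptor signal of 1650 CPM against 28.3 to 619 CPM in the other libraries. The liver list summed to 89.3 CPM in HDM replicate 1, to 169 CPM in HDM replicate 2 and to 102 CPM in HDM+Nafamostat replicate 2, against 2.94 to 31.2 CPM in PBS. PBS replicate 1 had 901 counts of Glycam1, a mucin of high endothelial venules, against 0 to 62 counts in the other libraries. In whole lung, more cells of a type and more RNA per cell cannot be told apart.

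Promoter windows of 3 of the genes are shown first, those of Ccl20 and Ccr6 because they held a kappa-B match and that of Cxcl13 for comparison. Windows from 250 bases before to 50 bases after a start site came from RefSeq (GRCm38.p6, the assembly of mm10) and were found for 5 of the 7 measured genes. They were searched on both strands for the kappa-B motif GGGRNNYYCC of the NF-kappa-B factors and for the AP-1 motif TGANTCA. Here R is A or G, Y is C or T and N is any base. The letters of the kappa-B motif were set after the windows had been seen. Capitals mark kappa-B matches, and the window of Ccr6 is that of its second start site.
Cxcl13, chr5:95956689-95956988, plus strand: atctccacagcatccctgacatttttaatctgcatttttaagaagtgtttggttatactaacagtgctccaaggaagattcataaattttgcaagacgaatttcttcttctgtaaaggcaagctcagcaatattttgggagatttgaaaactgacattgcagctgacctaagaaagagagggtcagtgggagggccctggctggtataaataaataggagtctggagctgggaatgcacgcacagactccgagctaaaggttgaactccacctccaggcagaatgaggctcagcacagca
Ccl20, chr1:83116516-83116815, plus strand: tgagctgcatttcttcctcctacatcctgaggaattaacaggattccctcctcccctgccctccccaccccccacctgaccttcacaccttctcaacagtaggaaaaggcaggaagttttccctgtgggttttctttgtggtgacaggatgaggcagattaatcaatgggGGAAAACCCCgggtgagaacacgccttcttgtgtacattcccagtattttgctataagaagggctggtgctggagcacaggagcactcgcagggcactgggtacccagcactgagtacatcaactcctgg
Ccr6, chr17:8242276-8242575, plus strand: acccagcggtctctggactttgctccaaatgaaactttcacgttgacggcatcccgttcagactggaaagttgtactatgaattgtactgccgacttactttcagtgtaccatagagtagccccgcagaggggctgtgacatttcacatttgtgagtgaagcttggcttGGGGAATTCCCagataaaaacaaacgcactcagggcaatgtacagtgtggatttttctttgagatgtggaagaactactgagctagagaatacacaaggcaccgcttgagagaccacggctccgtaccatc
The Ccl20 window held 1 kappa-B match, whose first base lay at −80 from the start site. The second Ccr6 window held 2 matches that overlap by all but 1 base, at −81 and −80, while the first Ccr6 window and those of Cxcl13, Xcl1 and Xcr1 had none. Of 32851 mouse promoter windows, 8.46% held the kappa-B motif and 7.81% the AP-1 motif, which none of the 6 windows of these genes held. Because the kappa-B letters were set after these windows had been seen, the 8.46% cannot show whether such matches are unusual in these genes. A match is a stretch of letters and was not tested for binding here.

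In lungs of HDM mice, 5 of the 7 measured genes were higher than in PBS mice (edgeR's quasi-likelihood test, adjusted p under 0.05 by Benjamini-Hochberg over 14608 genes). They were Cxcl13, Ccl20, Ccr6, Xcl1 and Xcr1, and none was lower. Of all genes tested, 29.5% were called in this comparison, 15.3% as higher and 14.2% as lower. With nafamostat, 1 of the 7 genes, Ccl20, was lower than with HDM alone, where 2.92% of 14413 genes were called. Against PBS, 2 of the 7 genes, Cxcl13 and Xcr1, were still higher in HDM+Nafamostat mice, where 14.3% of 14079 genes were called. These 3 comparisons share libraries, so that they are not independent of each other. The median log2 fold change of the 7 genes was 1.22 for HDM against PBS, −0.22 for nafamostat against HDM and 0.51 for nafamostat against PBS, next to 0.02, −0.01 and −0.01 for all genes tested.

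**Figure D1:**
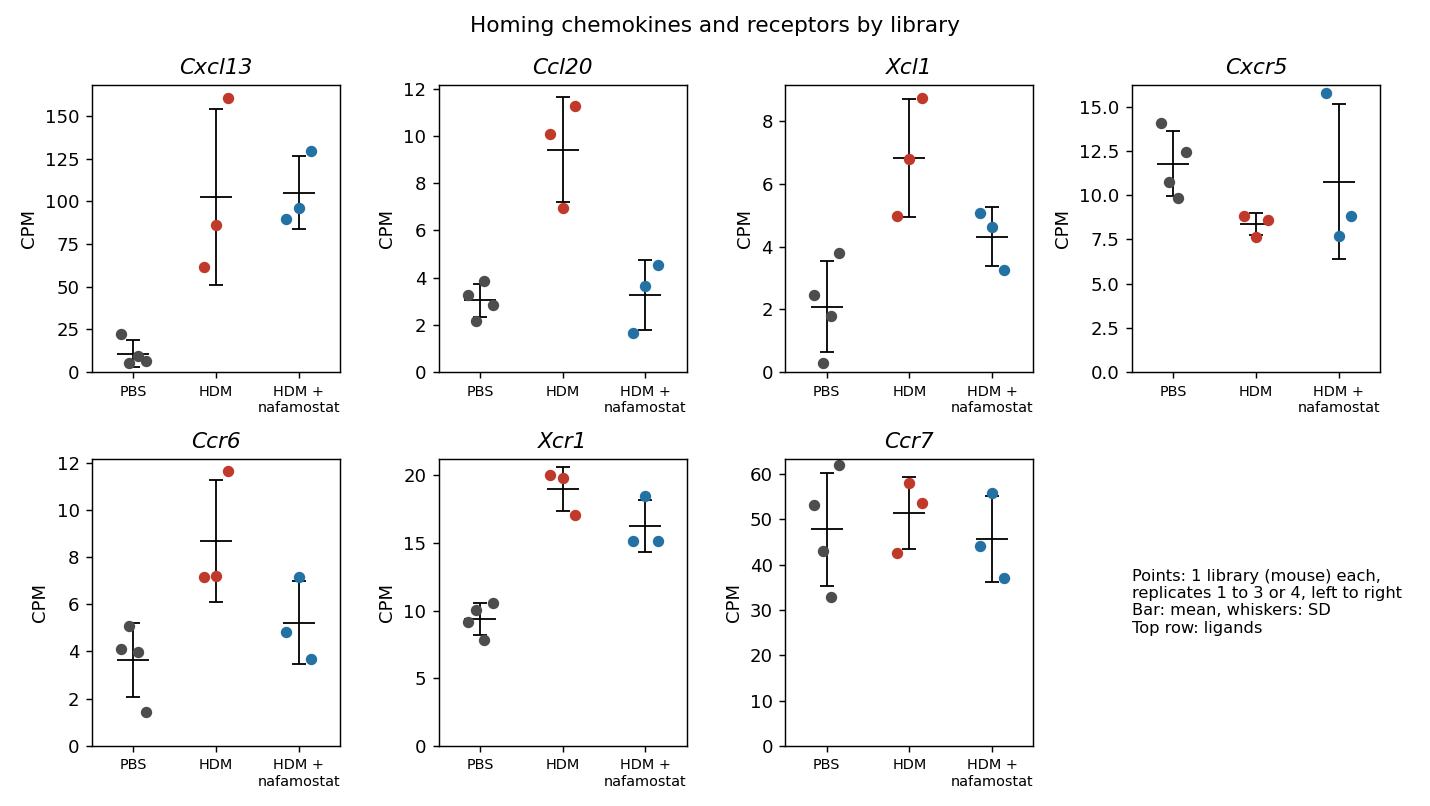
Level in CPM (y axis, linear, from 0) of the 7 measured genes in PBS, HDM and HDM+Nafamostat mice. Points are libraries of 1 mouse each, the bar is the mean and the whiskers are the SD. Cxcl13 stayed between 89.7 and 130 CPM with nafamostat, whereas Ccl20 lay between 1.65 and 4.52 CPM with nafamostat and between 6.93 and 11.3 CPM with HDM alone.

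Cxcl13 (ENSMUSG00000023078.6, chromosome 5: 95956951 to 95961068 of GRCm38, plus strand, 4 exons), the ligand that builds B cell follicles, was the gene of the set that differed most from PBS. The PBS libraries held 22.4, 5.37, 9.22 and 6.31 CPM of Cxcl13 in replicates 1 to 4. The HDM libraries held 61.4, 86.2 and 160.4 CPM. With nafamostat, Cxcl13 was at 89.7, 96.1 and 129.8 CPM, so that every treated library lay above every PBS library and the HDM and nafamostat libraries overlapped. Over all genes, 36.5% had no overlap between HDM and PBS libraries and 24.1% between HDM+Nafamostat and PBS libraries. The mean rose from 10.8 ± 7.88 CPM (SD, n = 4) to 103 ± 51.5 (SD, n = 3) with HDM and was 105 ± 21.5 (SD, n = 3) with nafamostat. The log2 fold change of Cxcl13 with HDM was 3.24 ± 0.39 (SE), or 9.45-fold (95% CI 2.41 to 4.07 on the log2 scale, edgeR adjusted p = 2.36e-05). Against PBS, HDM+Nafamostat mice had 9.80-fold more Cxcl13 (log2 3.29 ± 0.32, 95% CI 2.61 to 3.97, edgeR adjusted p = 1.48e-06). Between nafamostat and HDM alone the difference in Cxcl13 was 0.04 ± 0.27 on the log2 scale (edgeR adjusted p = 0.949), and its 95% CI of −0.53 to 0.61 does not include a change of 2-fold in either direction. PBS replicate 1, with the high Glycam1 count, also had the highest Cxcl13 of the PBS libraries. Without it, the log2 fold changes of Cxcl13 from PBS were 3.85 with HDM and 3.90 with nafamostat. Cxcl13 was called against PBS, with and without nafamostat, in all 14 alternative analyses of each comparison.

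Cxcr5 (ENSMUSG00000047880.15, chromosome 9: 44511787 to 44561877, minus strand), the receptor for CXCL13 on B cells and follicular helper T cells, did not follow its ligand. It was measured at 14.1, 10.7, 9.86 and 12.5 CPM in PBS, at 8.79, 7.63 and 8.61 CPM in HDM and at 15.8, 7.70 and 8.83 CPM in HDM+Nafamostat libraries. All 3 HDM values lay below all 4 PBS values, as 36.5% of all genes had no overlap between these groups in one direction or the other, and the nafamostat libraries spanned both groups through their replicate 1. The log2 difference of Cxcr5 with HDM was −0.51 ± 0.21 (95% CI −0.96 to −0.05, edgeR adjusted p = 0.0868), which did not pass. It passed when libraries were scaled by their totals only (edgeR adjusted p = 0.0445). With nafamostat Cxcr5 differed from HDM by 0.36 ± 0.28 (edgeR adjusted p = 0.491) and from PBS by −0.14 (95% CI −0.69 to 0.41, edgeR adjusted p = 0.789). Bcl9l overlaps Cxcr5 on the opposite strand, and whether counting used the strand is not stated.

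Ccl20 (ENSMUSG00000026166.14, chromosome 1: 83116766 to 83119167, plus strand, 4 exons), the epithelial ligand of CCR6, rose with HDM and was lower with nafamostat. Its levels were 3.27, 2.18, 3.84 and 2.84 CPM in PBS libraries, from 15 to 30 counts. They were 10.1, 6.93 and 11.3 CPM in HDM libraries, from 49 to 87 counts. In HDM+Nafamostat libraries Ccl20 was at 1.65, 3.63 and 4.52 CPM, from 13 to 43 counts. The HDM libraries lay above all others, and the nafamostat and PBS libraries overlapped. HDM libraries had no overlap with PBS libraries in 36.5% of all genes, and none with HDM+Nafamostat libraries in 25.5%. Ccl20 was 3.05-fold higher in HDM than in PBS mice (log2 1.61 ± 0.30, 95% CI 0.98 to 2.24, edgeR adjusted p = 8.15e-04), and this call held in all 14 alternatives. In HDM+Nafamostat mice it was 2.85-fold lower than in HDM mice (log2 −1.51 ± 0.35, 95% CI −2.27 to −0.75, edgeR adjusted p = 0.0377). From PBS it differed by 0.11 ± 0.41 (95% CI −0.75 to 0.98, edgeR adjusted p = 0.893), an interval that lies within 2-fold of PBS. The nafamostat call of Ccl20 lies close to the threshold. The edgeR adjusted p was 0.089 without HDM replicate 1, 0.117 without HDM replicate 3, 0.0631 without HDM+Nafamostat replicate 1 and 0.106 without HDM+Nafamostat replicate 3, with log2 differences of −1.82 to −1.21 over these fits. It was 0.0384 without HDM replicate 2 and 0.0459 without HDM+Nafamostat replicate 2, the libraries with the most liver signal, and 0.117 without HDM replicate 3 and HDM+Nafamostat replicate 2 together.

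Ccr6 (ENSMUSG00000040899.14, chromosome 17: 8236043 to 8257141, plus strand), the receptor for CCL20, was also highest in HDM mice. Its PBS levels were 4.09, 5.08, 3.97 and 1.42 CPM, from 9 to 35 counts. HDM libraries held 7.17, 7.21 and 11.7 CPM of Ccr6, and HDM+Nafamostat libraries held 4.83, 7.15 and 3.68 CPM. The HDM values lay above all PBS values and above all nafamostat values, the closest pair being 7.17 and 7.15 CPM. The rise of Ccr6 with HDM was 2.34-fold (log2 1.22 ± 0.36, 95% CI 0.47 to 1.98, edgeR adjusted p = 0.0168). It was not called without HDM replicate 3, the library with the highest olfactory receptor signal (log2 0.95, edgeR adjusted p = 0.11). The nafamostat difference from HDM was −0.73 ± 0.32 (95% CI −1.41 to −0.05) and did not pass (edgeR adjusted p = 0.2), and Ccr6 differed from PBS by 0.51 (95% CI −0.31 to 1.33, edgeR adjusted p = 0.433). Of all genes tested, 25.5% had no overlap between HDM and HDM+Nafamostat libraries and 36.5% between HDM and PBS libraries, as with Ccl20 and Ccr6. Il17a, the signature cytokine of CCR6-bearing T helper 17 cells, had 0 counts in all 4 PBS libraries, 54 to 122 counts in HDM libraries and 11 to 23 in HDM+Nafamostat libraries. With nafamostat Il17a was lower than with HDM alone (log2 −2.71 ± 0.36, edgeR adjusted p = 0.0038).

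**Figure D2:**
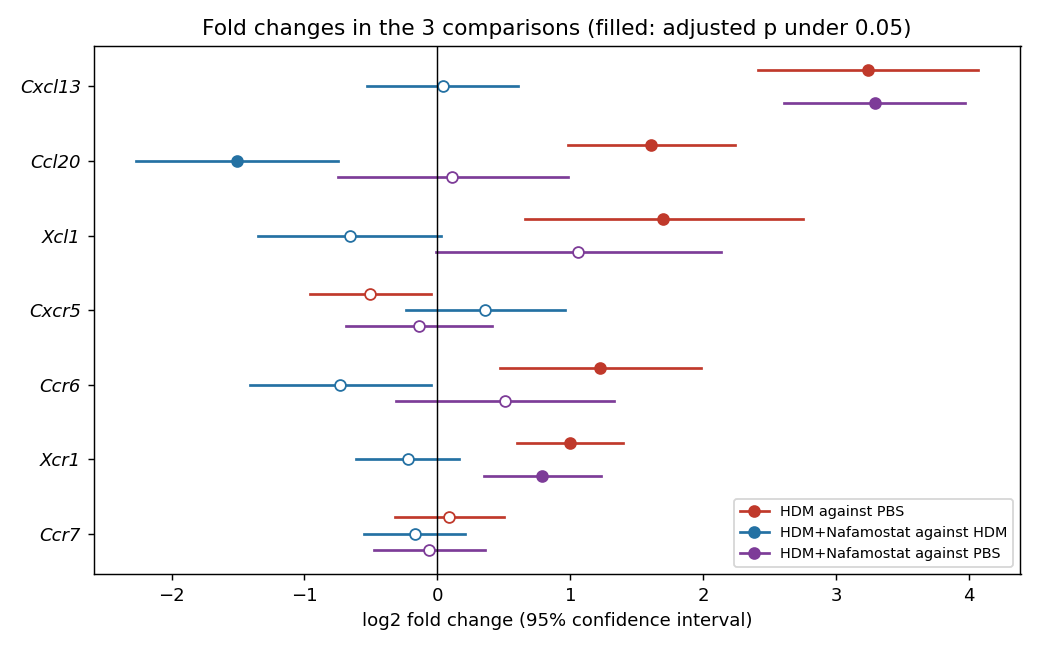
Log2 fold change (x axis) of each gene with its 95% confidence interval in the 3 comparisons, from edgeR's quasi-likelihood test; filled points have an adjusted p under 0.05. The nafamostat interval of Cxcl13 runs from −0.53 to 0.61 around no difference from HDM, and that of Ccl20 from −2.27 to −0.75.

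Xcl1 (ENSMUSG00000026573.7, chromosome 1: 164931644 to 164935527, minus strand, 3 exons), a ligand of activated CD8 T cells and natural killer cells, was low in every library. Its counts were 15, 2, 14 and 24 in PBS, 43, 48 and 66 in HDM and 40, 42 and 31 in HDM+Nafamostat. The levels were 2.45, 0.29, 1.79 and 3.78 CPM, then 4.97, 6.79 and 8.74 CPM, then 5.08, 4.62 and 3.26 CPM in the same order. The HDM libraries lay above all PBS libraries, whereas the nafamostat libraries overlapped with both groups. Between HDM and PBS libraries, 36.5% of all genes had no overlap in one direction or the other. Xcl1 was 3.26-fold higher with HDM (log2 1.70 ± 0.49, 95% CI 0.66 to 2.75, edgeR adjusted p = 0.016), a call lost without HDM replicate 3 (log2 1.49, edgeR adjusted p = 0.0705). With nafamostat it differed from HDM by −0.66 (95% CI −1.35 to 0.03, edgeR adjusted p = 0.251) and from PBS by 1.06 (95% CI −0.01 to 2.13, edgeR adjusted p = 0.186), so that neither difference passed. Gm20743 overlaps Xcl1 on the opposite strand.

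Xcr1 (ENSMUSG00000060509.4, chromosome 9: 123852315 to 123862029, minus strand, 2 exons), the receptor that marks cDC1, was the least variable of the 5 genes that rose. PBS libraries held 9.15, 10.0, 7.81 and 10.6 CPM, HDM libraries 20.0, 19.8 and 17.1 CPM and HDM+Nafamostat libraries 15.1, 18.5 and 15.1 CPM. All 6 libraries given HDM lay above all 4 PBS libraries. The shares of all genes without such overlap are those given for Cxcl13. Xcr1 was 2.00-fold higher with HDM (log2 1.00 ± 0.19, 95% CI 0.60 to 1.40, edgeR adjusted p = 0.00103), in all 14 alternatives. It was 1.73-fold higher than PBS in HDM+Nafamostat mice (log2 0.79 ± 0.21, 95% CI 0.35 to 1.23, edgeR adjusted p = 0.0168), a call lost without HDM+Nafamostat replicate 2 (edgeR adjusted p = 0.0916). Nafamostat and HDM alone differed by −0.22 ± 0.18 (95% CI −0.61 to 0.16, edgeR adjusted p = 0.501).

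Ccr7 (ENSMUSG00000037944.8, chromosome 11: 99144196 to 99155077, minus strand, 3 exons), the receptor that takes mature dendritic cells and naive T cells to lymph nodes, passed in none of the 3 comparisons. Its levels were 53.1, 43.1, 32.9 and 62.0 CPM in PBS, 42.6, 58.1 and 53.6 CPM in HDM and 44.2, 55.9 and 37.1 CPM in HDM+Nafamostat libraries, and the groups overlapped throughout. The log2 differences were 0.09 ± 0.19 for HDM against PBS (edgeR adjusted p = 0.756), −0.17 ± 0.18 for nafamostat against HDM (edgeR adjusted p = 0.614) and −0.06 ± 0.20 for nafamostat against PBS (edgeR adjusted p = 0.88). Their 95% CIs were −0.32 to 0.50, −0.55 to 0.21 and −0.48 to 0.36, so that a change of 2-fold lay outside each.

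**Figure D3:**
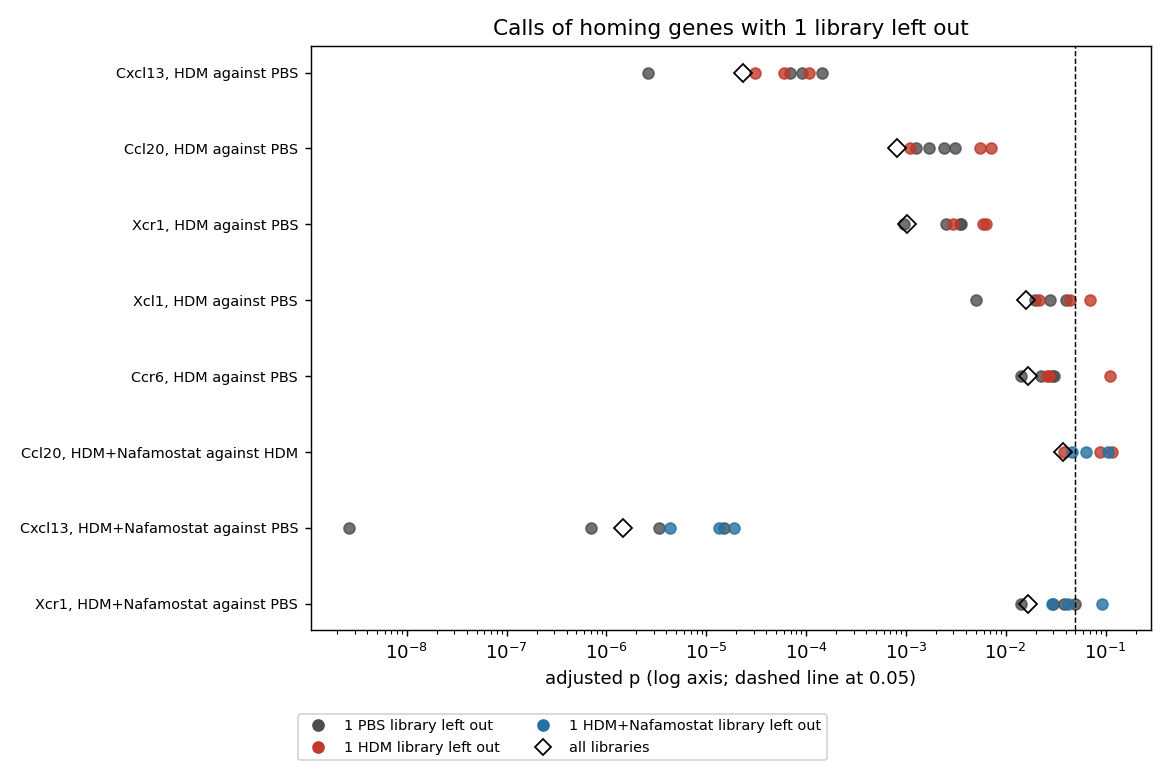
Adjusted p (x axis, log scale) of each called gene with all libraries (diamonds) and with 1 library left out (points, coloured by the group of that library); the dashed line marks 0.05. Cxcl13, Ccl20 and Xcr1 stayed called for HDM against PBS, whereas the adjusted p of Ccl20 between nafamostat and HDM lay above 0.05 in 4 of 6 such fits.

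By the root mean square difference of centred log2 CPM over the 10 libraries, among 12487 genes with a mean of at least 2 CPM, the genes nearest to Cxcl13 were Orm1 (0.39), Reg3g (0.42) and Serpina3n (0.46). Orm1 and Serpina3n encode acute phase proteins and Reg3g an epithelial antimicrobial lectin. Reg3g, for example, averaged 66.4 CPM in PBS, 520.0 CPM in HDM and 613 CPM in HDM+Nafamostat mice. Nearest to Ccl20 were Arpc1b, Il1rl2 and Erp44, each at 0.42, of which Il1rl2, the receptor for interleukin 36, averaged 6.37, 13.9 and 6.83 CPM in the same groups. Xcr1 had closer neighbours, Unc119 at 0.10 and Atp6ap2 and Stk38 at 0.11. The nearest genes to Xcl1 were Gxylt2 (0.45), Brip1 (0.48) and Zswim7 (0.48), and those to Ccr6 were 0610005C13Rik (0.29), Cited4 (0.30) and Dok3 (0.30). Cxcr5 lay nearest to Pgm5 (0.15), Adck3 (0.15) and Rps4l (0.16), and Ccr7 to Rassf1 (0.14), Nudc (0.14) and Bbs4 (0.15). These distances are smaller for genes that vary little and describe the 10 libraries only.

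Lymphotoxin and BAFF signals, which switch on CXCL13 in stroma and keep B cells alive, rose with HDM in 8 of 16 genes and fell in none (edgeR adjusted p under 0.05, median log2 0.57 against 0.02 over all genes). Next to these, 15.3% of all genes were called higher and 14.2% lower. Without HDM replicate 3, 5 of the 16 were called. Among the 8 that did not pass were Lta (log2 0.60, edgeR adjusted p = 0.49) and Relb (log2 0.03, edgeR adjusted p = 0.97). The receptors Ltbr (log2 0.13, edgeR adjusted p = 0.52) and Tnfrsf13c (log2 0.53, edgeR adjusted p = 0.115) did not pass either. Ltb, a subunit of the lymphotoxin ligand, was at 46.7 to 63.1 CPM in PBS, 89.5 to 117 CPM in HDM and 52.4 to 68.9 CPM in HDM+Nafamostat libraries. It rose by 0.91 ± 0.15 on the log2 scale (edgeR adjusted p = 2.61e-04). With nafamostat Ltb was lower than with HDM by 0.78 (log2 −0.78, edgeR adjusted p = 0.0193), a call lost without HDM replicate 1, without HDM+Nafamostat replicate 3 or with the replicate number as a block. Tnfsf13b, which encodes BAFF, rose by 0.70 ± 0.14 (edgeR adjusted p = 0.00201), from 34.1 to 46.0 CPM in PBS to 64.2 to 72.8 CPM in HDM, and lay at 70.4 to 74.5 CPM with nafamostat. Tnfsf14, the ligand LIGHT, and Birc3, a ubiquitin ligase of this pathway, rose by 1.37 and 1.01.

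Among other homing genes, 2 of 12 rose and 3 fell with HDM (edgeR adjusted p under 0.05, median log2 0.33), where 15.3% of all genes were called higher and 14.2% lower. Ch25h, the enzyme that starts synthesis of the oxysterol that guides EBI2-bearing B cells, rose from 2.56 to 3.94 CPM in PBS to 22.5 to 29.1 CPM in HDM (log2 2.96 ± 0.22, edgeR adjusted p = 1.47e-07). It lay at 11.4 to 20.4 CPM in HDM+Nafamostat libraries. Gpr183, which encodes EBI2, rose by 0.96 and was not called without HDM replicate 2 or 3. Those that fell were Ackr4, a scavenger of CCL19, CCL21 and CCL25 (log2 −1.59 ± 0.30, edgeR adjusted p = 9.58e-04), S1pr1, the receptor by which lymphocytes leave tissue and which endothelium also carries (log2 −1.11), and Ackr3 (log2 −0.49, not called without HDM replicate 3). Between nafamostat and HDM 0 of these 12 genes passed by edgeR, and 4 had an unadjusted p under 0.05 (Ackr2, Ccl25, Ch25h and S1pr1), next to 3087 of 14413 genes (21.4%) over the whole table.

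B cell genes moved in both directions with HDM: 4 of 11 rose and 2 fell (edgeR adjusted p under 0.05, median log2 0.29), and the list's summed level was 321 to 426 CPM in PBS, 421 to 433 CPM in HDM and 324 to 413 CPM in HDM+Nafamostat. Fcer2a, the low-affinity IgE receptor CD23, rose by 0.85 ± 0.20 and Ms4a1, which encodes CD20, was also called. Pax5, the B lineage factor, fell by 0.89 (log2 −0.89 ± 0.20, edgeR adjusted p = 0.00383), and Fcmr, the IgM receptor, fell by 0.75. Of the germinal centre and follicular helper list, 4 of 8 genes rose and none fell (median log2 1.19), with 2 called without HDM replicate 3. Pdcd1, which encodes PD-1 on activated and follicular helper T cells, rose from 0.26 to 2.12 CPM in PBS to 20.4 to 40.3 CPM in HDM (log2 4.85 ± 0.41, edgeR adjusted p = 6.16e-07), and Icos, their costimulatory receptor, rose by 2.33. Bcl6, the factor that defines both germinal centre cell types, differed by −0.07 (edgeR adjusted p = 0.737). In the plasma cell list, 2 of 7 genes rose and 1 fell, next to 15.3% and 14.2% of all genes: Jchain, the joining chain of secreted IgM and IgA, rose by 2.88 ± 0.28 and Mzb1 by 2.14 ± 0.29, while Prdm1 fell by 0.62, a call lost without PBS replicate 1 or 2 or HDM replicate 1 or 2.

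Among T cell genes, 4 of 10 rose and none fell (edgeR adjusted p under 0.05, median log2 0.49), with Cd3g at 0.98, Cd4 at 0.95 and Lck at 0.70, whereas Cd8a differed by 0.02. With HDM, 15.3% of all genes were called higher and 14.2% lower. In the naive and central memory list 1 of 5 genes rose, near that share, and 3 fell. Lef1 fell by 0.99 and Il7r rose by 1.15, while the falls of Klf2 (log2 −0.88) and Tcf7 (log2 −0.50) were lost without HDM replicate 3 for Klf2, and without PBS replicate 1 or HDM replicate 1 or 2 for Tcf7. Of the natural killer and cytotoxic list, 1 of 8 genes, Prf1, fell (log2 −1.38) and none rose, a share near the 14.2% of all genes called lower, and 2 fell without PBS replicate 3. Of the other cDC1 markers, 4 of 7 rose and 1 fell (median log2 0.51), next to the rise of Xcr1. Irf8 rose by 0.92 ± 0.13, Itgae by 1.30 ± 0.22 and Batf3, from 0 to 0.73 CPM in PBS, by 3.23 ± 0.69, while Cadm1, which lung epithelium also expresses, fell by 0.79 (log2 −0.79 ± 0.13). Clec9a, a receptor of these cells, differed by 0.51 and did not pass (edgeR adjusted p = 0.0757). Wdfy4 rose by 0.42 and was called in 7 of 14 alternatives, and Tlr3 differed by −0.46 and did not pass (edgeR adjusted p = 0.0537). Without PBS replicate 3, 5 rose and 2 fell, and 3 rose without PBS replicate 1, 2 or 4 or HDM replicate 1. The summed level of this list was 490 to 555 CPM in PBS, 504 to 537 CPM in HDM and 468 to 560 CPM in HDM+Nafamostat libraries.

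Markers of mature dendritic cells, which usually carry CCR7, rose in 6 of 9 genes with HDM and fell in none (edgeR adjusted p under 0.05, median log2 1.42), although Ccr7 itself did not pass. Across all genes 15.3% were called higher and 14.2% lower. The summed level of the list was 107 to 145 CPM in PBS, 422 to 440 CPM in HDM and 254 to 347 CPM in HDM+Nafamostat libraries. Ccl17, which attracts CCR4-bearing T cells and which other myeloid cells also make, was at 2.45 to 10.3 CPM in PBS and at 125 to 149 CPM in HDM (log2 4.85 ± 0.31, edgeR adjusted p = 3.66e-08). Cd83 rose by 1.85 ± 0.16 and Ccl22 by 2.56 ± 0.24. Fscn1, the actin bundler of migrating dendritic cells, was called at 0.64 with all libraries and not without PBS replicate 1 or 3 or HDM replicate 2 or 3. Of the vessel list, 1 of 8 genes rose, Vcam1 (log2 0.61 ± 0.13), a share no higher than the 15.3% of all genes. Of its lymphatic vessel genes, Lyve1 (log2 −0.02, edgeR adjusted p = 0.908), Prox1 (log2 −0.20, edgeR adjusted p = 0.757) and Pdpn (log2 −0.23, edgeR adjusted p = 0.209) did not pass. Flt4, a growth factor receptor of lymphatic vessels, fell by 1.26 (log2 −1.26 ± 0.17). Glycam1 was the other gene called lower, but its 901 counts in PBS replicate 1 stood against 0, 4 and 7 in the other PBS libraries, and no fold is given; without that library it was not tested, and without any 1 HDM library it was not called. In the liver list 6 of 8 genes were called higher, 2 without HDM replicate 2, and in the lung list 4 of 6 fell, among them Ager, a marker of alveolar type 1 cells (log2 −1.22 ± 0.14), and none rose except 1 without PBS replicate 4. The part of these shifts in the homing genes was not tested.

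**Figure D4:**
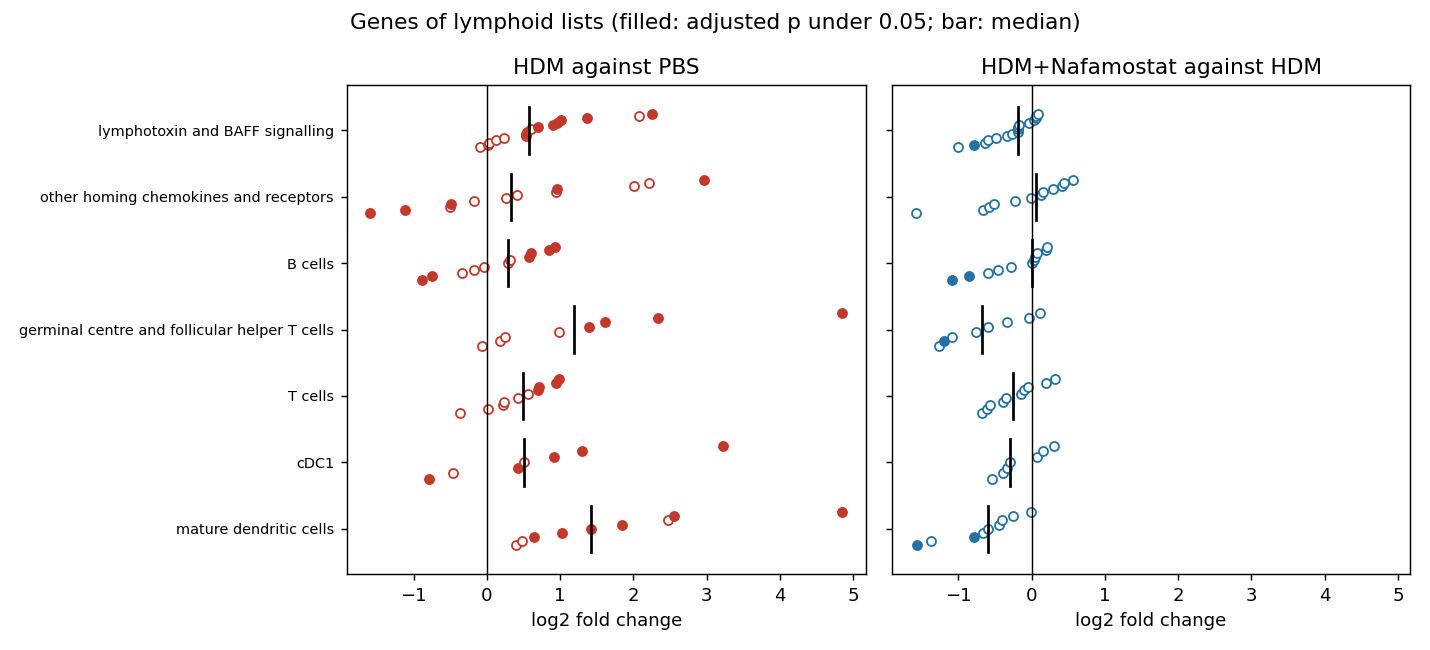
Log2 fold change (x axis) of each gene in 7 lists for HDM against PBS (left) and HDM+Nafamostat against HDM (right); filled points have an edgeR adjusted p under 0.05 and the bar is the median of the list. Points of the mature dendritic cell list all lie right of 0 with HDM, with a median of 1.42, and their median with nafamostat is −0.60.

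Between nafamostat and HDM alone, 9 of the 103 genes tested in the lists other than liver and lung were lower and none higher (edgeR adjusted p under 0.05), where 1.97% of all genes were called lower and 0.951% higher. They included Fcrla of B cells, Jchain and Mzb1 of plasma cells, Pdcd1, Ltb, Cd83, Socs2 and Il17a. Of the 9, only Il17a was called in all 14 alternatives of the comparison. Without HDM replicate 1, or without HDM+Nafamostat replicate 3, it was the 1 gene of the 9 still called, and without HDM replicate 3 the count was 5. Jchain stood at 620 to 1008 CPM in HDM and at 324 to 514 CPM with nafamostat, above the 63.2 to 156 CPM of PBS. Against PBS, 23 of 102 genes of these lists were higher and 8 lower in HDM+Nafamostat mice, where 8.73% and 5.53% of all genes were. Pdcd1, Icos, Ccl17, Ccl22, Cd83, Jchain, Ch25h, Tnfsf13b and Fcer2a were among the genes called higher there in all 14 alternatives, as Cxcl13 was. Ackr2, S1pr1 and Flt4 were called lower in all 14.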

How the data were processed

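RNA of 10 lungs, 1 library per mouse, was made into Ion AmpliSeq mouse transcriptome libraries (1 amplicon for each gene) and read on an Ion S5 XL. As deposited by the authors, the tables hold raw read counts per amplicon on mm10 (from the submitters' notes); the methods name normalized values, and aligner settings and strand use are not given in the sources used here. The counts were whole numbers with unequal totals, and 27 symbols changed by a spreadsheet were read back. Groups came from the labels.

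The 3 comparisons were fitted separately, each with the libraries of its 2 groups, in edgeR 4.0.16 under R 4.3.3. Genes with at least 30 counts summed over those libraries were scaled by TMM and tested with the quasi-likelihood F test, with Benjamini-Hochberg adjustment over all of them. A gene was called below an adjusted p of 0.05, whatever its fold. SEs are the log2 fold change divided by the root of F. CPM used TMM factors over all 10 libraries. Alternatives were other scaling, DESeq2 1.42.0, other filters, 1 fit of all groups, a replicate block, a fold minimum and leaving out libraries. The fit was tested on simulated data. Replicates differed by more than counting error (chi-square per gene 7.62 to 22.4). Positions come from GENCODE release M 21 on GRCm38.

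The genes and the 14 lists were chosen with earlier results of these data known. Named were all members, up to 4 called genes per list and comparison with the smallest p, any gene of the B cell, cDC1, mature dendritic cell, lung and liver lists, and the 3 nearest genes per member. Bcl6, Cd8a, Gpr183 and the nafamostat values of Ackr2, Ccl25, Ch25h and S1pr1 were named after their values were seen. So were Lta, Ltbr, Tnfrsf13c, Relb, Lyve1, Prox1 and Pdpn. The kappa-B letters were set after the promoters had been seen. Ccl19 and other listed symbols without a row found in the tables were not analysed here.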

Additional observations from a re-analysis of the deposited data

How the results depend on the processing

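Cxcl13 against PBS in both comparisons, and Ccl20 and Xcr1 for HDM against PBS, were called in every alternative; the called homing genes kept their direction throughout. With each library left out in turn, 3 to 5 homing genes were called for HDM against PBS, 0 to 1 for nafamostat against HDM and 1 to 2 for nafamostat against PBS. List genes called were 40 to 52, 1 to 12 and 20 to 34 for these comparisons, against 50, 9 and 31 with all libraries, and all genes called 3085 to 4868, 15 to 712 and 1198 to 2509, against 4311, 421 and 2008.

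For nafamostat against HDM, DESeq2 called 977 genes, 16 of them in the lists, and the fit with no filter called 1271, 22 in the lists. Without HDM replicate 3 and HDM+Nafamostat replicate 2 together, edgeR called 0 homing genes for that comparison. With a minimum of 2-fold added, the counts were 1662 genes and 24 list genes for HDM against PBS, 120 and 5 for nafamostat against HDM, and 811, 16 and 1 homing gene for nafamostat against PBS.

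No pairing of the mice by replicate number was evident: same-numbered libraries had deviation correlations of −0.17 to 0.10. These deviations were taken from means of 3 or 4 libraries, so that a weak pairing could be missed. With the replicate block, nafamostat against HDM gave 85 genes, 3 list genes and 0 homing genes (adjusted p by edgeR 0.0716 for Ccl20 and 0.0592 for Ltb), and Xcl1 was called for nafamostat against PBS (log2 1.61, adjusted p = 0.0419 by edgeR), giving 3 homing genes there; with it, the log2 fold change of Xcl1 for HDM against PBS was 2.24.

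Uncalled values near 0 changed sign. Ccr7 moved to −0.05 and −0.01 for HDM against PBS without PBS replicate 3 and HDM replicate 2, and to 0.09, 0.08 and 0.07 for nafamostat against PBS with the replicate block and without PBS replicate 4 or HDM+Nafamostat replicate 3. Cxcl13 for nafamostat against HDM was −0.24, −0.07 and −0.14 without HDM replicate 1, HDM replicate 2 and HDM+Nafamostat replicate 3, and 0.57 without both HDM replicate 3 and HDM+Nafamostat replicate 2. Cxcr5 was −0.02 for nafamostat against HDM without HDM+Nafamostat replicate 1 and 0.05 against PBS without HDM+Nafamostat replicate 2, and Ccl20 was −0.02 and −0.20 against PBS without PBS replicate 2 and HDM+Nafamostat replicate 3. The causes of these shifts were not tested. Counts of Xcl1, Ccr6 and Ccl20 fell as low as 2, 9 and 13 in a library, which limits the precision of their changes. Over the fits that leave out 1 library, the highest value was 0.24 for Ccr7 with HDM, 0.51 for Cxcl13 and 0.55 for Cxcr5 between nafamostat and HDM, and 0.41 for Ccl20 against PBS with nafamostat, and the lowest for Cxcr5 against PBS with nafamostat was −0.52.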
